A study of Rattus norvegicus with 9 samples.

Results

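Endothelial and pericyte genes were followed in whole prostates of rats with and without experimentally induced benign prostatic hyperplasia (BPH), on 9 one-color arrays. The list held 43 genes, chosen by name for their known expression in blood vessels, lymphatic vessels and pericytes or for their role as ligands of vascular receptors. The choice was made with earlier results of these data known, so that counts over the list are descriptions and no independent test. A probe of the array could be assigned by its accession to 37 of them, out of 26905 genes or unnamed transcripts measured. The remaining 6 genes (Vwf, Ecscr, Robo4, Egfl7, Mmrn1 and Mmrn2) had no assigned probe and are not analysed here. Among the 37 genes, 33 were bright enough to be compared between groups in at least 1 comparison, and 30 in all 3 comparisons.

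Blood vessels are lined by endothelial cells, which are held together by junction proteins such as VE-cadherin (Cdh5) and claudin-5 (Cldn5) and are surrounded by pericytes. Vascular endothelial growth factors act on the receptors encoded by Kdr, Flt1 and Flt4, while the angiopoietins act on Tek (Tie2): angiopoietin-1 activates this receptor and stabilizes vessels, and angiopoietin-2, which is released by endothelial cells, often acts as its antagonist and accompanies vessel remodeling. Endothelial cells also carry adhesion molecules for leukocytes, of which Icam2 is constitutive and Icam1, Vcam1, Sele and Selp are inducible. The prostate is richly vascularized, and its blood flow is known to depend on androgens.

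Male Sprague Dawley rats, purchased at an age of 6 weeks, formed 3 groups of 8, and arrays are from 3 prostates of each group; which of the rats were used is not stated. Sham rats were operated without castration and received corn oil s.c. and distilled water by mouth. BPH rats were castrated and received dihydrotestosterone (3 mg/kg s.c. daily for 4 weeks) and distilled water by mouth. BPH+ghrelin rats were castrated, received the same dihydrotestosterone, and were given rat ghrelin by gavage (20 nmol/kg daily for the last 2 weeks). Ghrelin is a metabolic hormone from the stomach. Another passage of the study gives another dose and route for ghrelin. As castration and dihydrotestosterone were shared by the BPH and BPH+ghrelin groups, their comparison addresses ghrelin, while the comparison of BPH with sham addresses castration and androgen replacement together. The intact testes of sham rats are part of that difference, and so may be the vehicle of dihydrotestosterone, which is not stated. In whole prostates, fewer vascular cells and less RNA per vascular cell cannot be told apart.

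Sham replicate 2 was the dimmest array, with a median raw signal of 40.9 compared to up to 133 on the others. The share of probes well above background was 61.4% on this array and 69.5% to 75.05% on the other 8 arrays. By the scan identifiers in the files, all 3 BPH arrays shared a slide with BPH+ghrelin replicate 1, and a second slide carried sham replicates 1 and 2 along with BPH+ghrelin replicates 2 and 3, while sham replicate 3 was on the third slide. On this reading BPH and sham had no slide in common and are linked across slides through the BPH+ghrelin arrays alone, so that a fit with slide as a fixed block can be made, at lower precision. For most of 22568 probes, the middle value of a group came from the same array, namely sham replicate 3 (72.7% of the probes), BPH replicate 2 (70.5%) and BPH+ghrelin replicate 2 (68.2%). For 33 genes of the list, the shares of these arrays were 63.6%, 72.7% and 60.6%. If each array were equally likely to hold the middle value, the shares would be near 1 in 3. The p values treat the arrays as independent animals, and the origin of this pattern was not tested. All levels below are log2 values of the background-corrected signal after quantile normalization. Differences are between group means on this scale, where 1 stands for a 2-fold difference. A difference was called at an adjusted p under 0.05 (limma, Benjamini-Hochberg adjustment over all genes tested).

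Genes that define endothelial cells were detected in all groups. Pecam1 (CD31), Cdh5 and Kdr (VEGF receptor 2), which define endothelial cells, were well above background on 9 of 9 arrays, as was the pericyte gene Rgs5. Tek was well above background on 4 of 9 arrays, comprising all 3 BPH arrays and 1 sham array. Vwf, which encodes von Willebrand factor, is not analysed here. The lymphatic transcription factor Prox1, the selectin Selp and the growth factor Vegfb were well above background on 0 of 9 arrays and the selectin Sele on 1 of 9, so that none of these 4 genes was compared. Lymphatic endothelium was hence represented by Lyve1, a hyaluronan receptor, and Pdpn (podoplanin), which are also expressed by other cell types.

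Upstream sequences were looked up for the genes whose differences are described below. RefSeq sequences of the 250 bases before the annotated gene start (rat assembly GRCr8) were at hand for 29 of the 43 genes, and for Icam1, Vcam1, Rgs5, Cldn5 and Vegfc among those called in any comparison, but not for Angpt2, Icam2 or Pecam1. Icam1, Vcam1 and Rgs5 are shown, because words of known vascular regulators occurred in them. Capitals mark the words searched on both strands, which were AGGAAG, a word bound by ETS factors such as Erg, together with CGGAAG from the same family, the pattern GGNNNTTCC (a loose form of the NF-κB site) and, for the TATA box, the word TATAAA. GGNNNTTCC was chosen after the sequences had been seen, and on the opposite strand it can overlap with the ETS words, with which it shares GGAA.
Icam1, chr8:27829595-27829844, plus strand: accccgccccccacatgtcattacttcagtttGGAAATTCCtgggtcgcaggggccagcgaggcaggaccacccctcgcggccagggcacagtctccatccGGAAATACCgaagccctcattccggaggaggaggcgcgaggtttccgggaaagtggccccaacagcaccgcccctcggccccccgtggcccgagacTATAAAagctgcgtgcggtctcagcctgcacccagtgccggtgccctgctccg
Vcam1, chr2:206742784-206743033, minus strand: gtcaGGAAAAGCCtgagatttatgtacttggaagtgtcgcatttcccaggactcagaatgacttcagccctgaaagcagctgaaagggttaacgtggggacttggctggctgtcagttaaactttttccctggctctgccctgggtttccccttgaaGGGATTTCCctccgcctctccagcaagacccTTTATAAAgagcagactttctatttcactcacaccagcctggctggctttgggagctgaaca
Rgs5, chr13:84380827-84381076, plus strand: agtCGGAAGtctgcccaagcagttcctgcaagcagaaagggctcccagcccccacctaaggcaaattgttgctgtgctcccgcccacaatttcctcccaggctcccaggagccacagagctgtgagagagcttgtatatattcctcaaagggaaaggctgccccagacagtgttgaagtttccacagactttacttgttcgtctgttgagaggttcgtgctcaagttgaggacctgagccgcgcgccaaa
In Icam1, GGNNNTTCC occurred 218 to 210 bases before the start on both strands and 149 to 141 bases before it on the opposite strand, and TATAAA at 53 to 48 bases. In Vcam1, GGNNNTTCC occurred at 246 to 238 bases on the opposite strand and at 93 to 85 bases, and TATAAA at 60 to 55 bases and, on the opposite strand, at 62 to 57 bases. In Rgs5, CGGAAG occurred at 247 to 242 bases. Cldn5 and Vegfc held none of these words. An ETS word was found in 17 of the 29 promoters (58.6%) and in 39.8% of 27457 promoters in the table. GGNNNTTCC was found in 5 of the 29 (17.2%) and in 15.4% of all, and TATAAA in 6 of the 29 (20.7%) and in 13.1% of all. These matches describe letters in these windows, and binding was not measured.

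In BPH prostates compared to sham, endothelial and pericyte genes showed no common direction. The lymphangiogenic growth factor Vegfc was lower, and it was the single gene of the list that passed the test. Of 33 genes tested, 18 were higher and 15 lower in BPH by their group means (46.3% of all genes were lower), with a median difference of 0.04, which is also the median of all 19552 genes tested. The call of 1 of 33 genes compares with 4.34% of all genes for both directions and 2.18% for lower levels. An unadjusted p under 0.05 was found for 9 of the 33 genes (26.5% of all genes).

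Vegfc levels were 7.75, 7.22 and 7.64 in sham and 6.82, 6.48 and 6.33 in BPH. The 3 BPH arrays lay below the 3 sham arrays without overlap. The difference was -0.99 (standard error 0.21, adjusted p 0.0427), a level 1.99-fold lower in BPH. BPH+ghrelin arrays had 6.73, 6.54 and 6.17, which overlapped with BPH. VEGF-C activates the receptor encoded by Flt4, whose own level differed by 0.04 between BPH and sham with the probe used and by 0.64 with its other probe. The call for Vegfc was kept without sham replicate 1 or 2 and was lost when any other of the 9 arrays was left out, so that the number of called genes was then 0 in limma, with an unadjusted p under 0.05 for 4 to 8 genes. The share of all genes with such a p is not given for these fits. Without 1 array the Vegfc difference was -1.15 to -0.88, and with normexp background correction it was -0.62 and called. With slide as a fixed block it was -1.32, at a standard error of 0.42 instead of 0.21, and the call was lost (adjusted p 0.581; 0 genes called in limma, 5 with an unadjusted p under 0.05).

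Tek levels were 3.19, 1.70 and 3.10 in sham and 4.19, 3.78 and 3.67 in BPH. All BPH arrays were above all sham arrays, but the lowest sham level came from the dimmest array (sham replicate 2), and 1 of 3 sham arrays was well above background. The difference was 1.22 (standard error 0.44) and did not pass the test (adjusted p 0.138). The gene entered the comparison mainly through its BPH arrays.

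A further 6 genes had higher levels on all BPH arrays than on any sham array without passing the test. They were the peptide ligand Apln (difference 0.55), the junction genes Cldn5 (0.53) and Esam (0.49), Rgs5 (0.39), Pdpn (0.32) and Icam2 (0.30). Together with Tek, these were 7 of 33 genes, compared to 17.1% of all genes. Lower on all BPH arrays were Vegfc, Vcam1 (-0.74, adjusted p 0.0950), the pericyte proteoglycan gene Cspg4 (-0.40) and Flt1 (VEGF receptor 1, -0.28), that is 4 of 33 genes, compared to 14.2% of all genes. Pecam1 (-0.31, adjusted p 0.214), Cdh5 (-0.44, adjusted p 0.148) and Kdr (-0.43, adjusted p 0.281) had overlapping arrays. Angpt2 differed by 0.20 and Angpt1 by -0.21, again with overlap, and their adjusted p values were 0.708 and 0.738.

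All marker lists of other tissues and cell types had median differences between BPH and sham larger in size than 0.04, in either direction. Seminal vesicle and coagulating gland markers had a median difference of -4.26 (7 tested, 5 lower, 3 of these called), and their median deviation from the mean of 9 arrays was 2.29 to 3.56 in sham and -2.36 to 0.03 in BPH. Basal epithelium markers had a median difference of 0.72 (4 of 5 higher, 2 called), adipocyte markers 1.57 (4 of 4 higher), red blood cell markers 0.49 (3 of 3 higher), luminal epithelium markers 0.44 (8 of 10 higher, 2 called) and fibroblast markers 0.36 (7 of 8 higher, 0 called). Striated muscle markers had a median of -0.999 (6 of 8 lower, 2 called). The median was 0.17 for smooth muscle markers (7 of 10 higher, 0 called) and -0.11 for leukocyte markers (6 of 12 higher, 1 of the others called lower). The part of such differences in the vascular values was not tested.

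**Figure D1:**
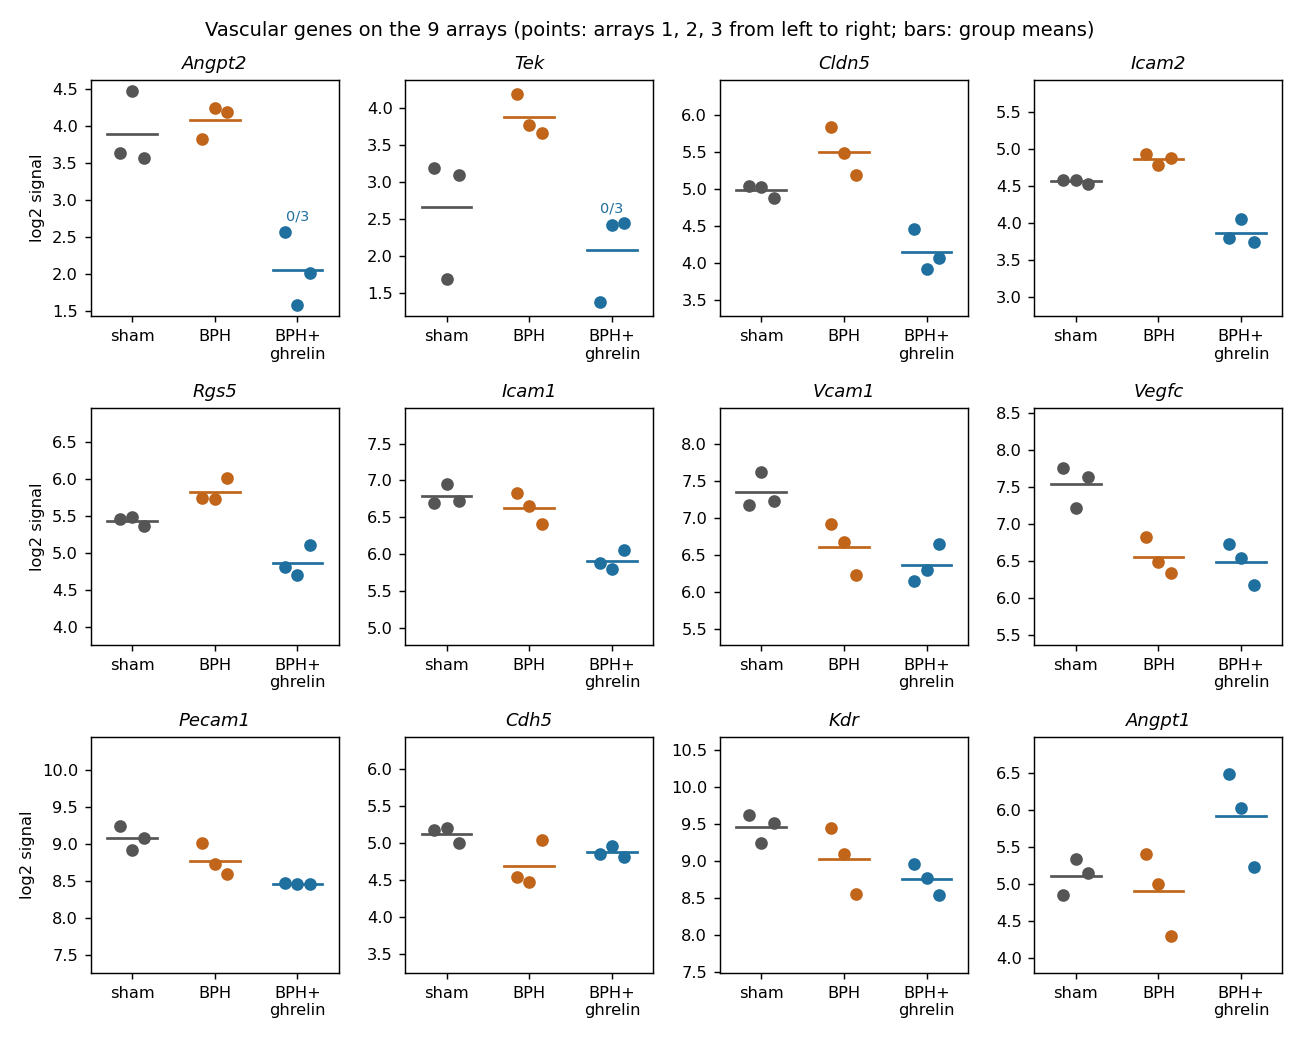
Levels (log2 signal after quantile normalization) of 12 endothelial and pericyte genes on each of 9 arrays; points are arrays, horizontal bars are means of 3 arrays, each panel has its own vertical range, and 0/3 marks a group in which no array was well above background. Angpt2, Cldn5, Icam2 and Rgs5 lie lower on all BPH+ghrelin arrays than on all others, while Vegfc and Vcam1 lie highest in sham.

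In BPH+ghrelin prostates compared to BPH, most endothelial and pericyte genes had lower levels, and 4 of them were called. These were Angpt2 (angiopoietin-2), the tight junction gene Cldn5, the adhesion molecule Icam2 and the pericyte gene Rgs5, a regulator of G protein signaling. No gene of the list was called higher in limma, and 1 gene with a higher level (Angpt1) had an unadjusted p under 0.05. Of 32 genes tested, 26 were lower and 6 higher by their group means (81.2% lower, compared to 48.3% of all 19749 genes), and their median difference was -0.35, compared to 0.02 for all genes. The 4 calls compare with 1.48% of all genes for both directions and 0.987% for lower levels. The BPH+ghrelin arrays lay below all BPH arrays for 17 of 32 genes, compared to 19.3% of all genes, and above them for 0 of 32, compared to 19.8% of all genes. An unadjusted p under 0.05 was found for 11 of 32 genes (21.1% of all genes). Angpt2 and Tek entered this comparison through their BPH arrays alone. Without both, 3 of 30 genes were called and 24 were lower by their means. With slide as a fixed block, a fit that rests on 1 BPH+ghrelin array here, 0 genes were called in limma and 11 had an unadjusted p under 0.05.

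Angpt2 levels were 3.63, 4.47 and 3.56 in sham, 3.83, 4.23 and 4.18 in BPH, and 2.56, 1.58 and 2.02 in BPH+ghrelin. Sham and BPH overlapped, while all BPH+ghrelin arrays lay lower and none of them was well above background. The level in BPH+ghrelin is therefore only a bound. The difference of the measured Angpt2 signals was -2.03 (adjusted p 0.0301 in limma), and this p does not test a bound. Computed against the lowest signal well above background on each BPH+ghrelin array, Angpt2 was at least 2.49-fold lower than in BPH. Its receptor gene Tek was at least 2.26-fold lower, with levels of 1.38, 2.43 and 2.45 in BPH+ghrelin, 0 of 3 arrays well above background and no overlap with BPH, but did not pass the test (adjusted p 0.0877). Both bounds are approximate, because a probe can exceed that lowest signal without being well above background. They hold for the main processing only. Among alternatives other than leaving out arrays, the difference shrank to -0.23 for Angpt2 and to -0.16 for Tek. The opposing ligand Angpt1 had levels of 5.41, 4.99 and 4.29 in BPH and 6.49, 6.03 and 5.23 in BPH+ghrelin. Its mean was 1.02 higher in BPH+ghrelin with overlapping arrays and did not pass the test (standard error 0.37, adjusted p 0.176).

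Cldn5 levels were 5.04, 5.02 and 4.87 in sham, 5.84, 5.48 and 5.19 in BPH, and 4.46, 3.91 and 4.07 in BPH+ghrelin. The 3 groups did not overlap, with BPH highest and BPH+ghrelin lowest. Cldn5 was 2.56-fold lower in BPH+ghrelin than in BPH (difference -1.35, standard error 0.20, adjusted p 0.0273). Icam2 had levels of 4.58, 4.59 and 4.52 in sham, 4.94, 4.78 and 4.88 in BPH, and 3.79, 4.05 and 3.74 in BPH+ghrelin. Again the groups did not overlap and had the same order. Icam2 was 2.01-fold lower (standard error 0.12 on the log2 scale, adjusted p 0.0177).

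Rgs5 levels were 5.46, 5.48 and 5.36 in sham, 5.74, 5.72 and 6.01 in BPH, and 4.81, 4.70 and 5.10 in BPH+ghrelin. The order of the groups was that of Cldn5 and Icam2, without overlap. Rgs5 was 1.94-fold lower in BPH+ghrelin than in BPH (difference -0.96, standard error 0.15, adjusted p 0.0296). The other pericyte gene, Cspg4, differed by -0.22 (adjusted p 0.470), with levels of 7.08, 7.00 and 7.07 in BPH and 6.84, 6.75 and 6.91 in BPH+ghrelin.

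Genes of endothelial junctions and surface were lower in 9 of 11 cases, with a median difference of -0.45. Besides Cldn5 and Icam2, these included Mcam (-0.76, adjusted p 0.189) and Emcn (-0.72, adjusted p 0.117), which encode the surface glycoproteins CD146 and endomucin, and Plvap (-0.61, adjusted p 0.243), which encodes the diaphragm protein of fenestrated endothelium, all 3 without overlap and none past the test. Pecam1 had levels of 9.00, 8.72 and 8.59 in BPH and 8.46, 8.46 and 8.45 in BPH+ghrelin, which did not overlap, but the difference was small (-0.31, adjusted p 0.255). Cdh5 levels were 4.54, 4.47 and 5.03 in BPH and 4.85, 4.95 and 4.81 in BPH+ghrelin. With a difference of 0.19 (95% interval -0.19 to 0.57, adjusted p 0.541), Cdh5 was thus among the 2 genes of this role with a higher mean, together with Cd34 (0.02).

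Among the receptors, Kdr had levels of 9.44, 9.09 and 8.55 in BPH and 8.96, 8.77 and 8.53 in BPH+ghrelin. These overlapped, and the difference was -0.27 (adjusted p 0.537). Flt1 (-0.23), Flt4 (-0.12) and the sphingosine-1-phosphate receptor S1pr1 (-0.59) were lower by their means, the latter without overlap, and Aplnr was higher (0.13). Tie1 was not compared, because 2 BPH arrays and 0 BPH+ghrelin arrays were well above background. Of the growth factors, Vegfa (-0.38) lay lower without overlap and Vegfc (-0.06) and Apln (0.21) overlapped. The probes used for all 3 endothelial transcription factors had lower means, with differences of -0.83 for Sox17, -0.69 for Sox18 and -0.49 for Erg, and none was called. The other Erg probe was higher by its means (1.35). Icam1 was lower without overlap (-0.72, adjusted p 0.0593), while Vcam1 overlapped (-0.25).

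Within the slide that carried all 3 BPH arrays and BPH+ghrelin replicate 1, this array differed from the mean of BPH by -1.04 for Cldn5, -1.07 for Icam2 and -1.02 for Rgs5. With 1 array of BPH+ghrelin on this slide, these are values without a test. The number of called genes was 4 without sham replicate 1 or BPH replicate 3, 8 without sham replicate 2, 2 without BPH+ghrelin replicate 1, and 0 without sham replicate 3. It was 0 as well without replicate 1 or 2 of BPH and without replicate 2 or 3 of BPH+ghrelin. In these fits, 9 to 13 genes of the list had an unadjusted p under 0.05. The share of all genes with such a p is not given for them, and was 21.1% in the main fit. With normexp background correction, which here started from the median spot and background signals in place of the processed signal, 1 gene (Rgs5) was called. The differences were then -0.38 for Cldn5, -0.24 for Icam2 and -0.39 for Rgs5. Angpt2 was not called either. Its difference was -2.13 to -0.23 over the alternatives other than leaving out arrays.

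**Figure D2:**
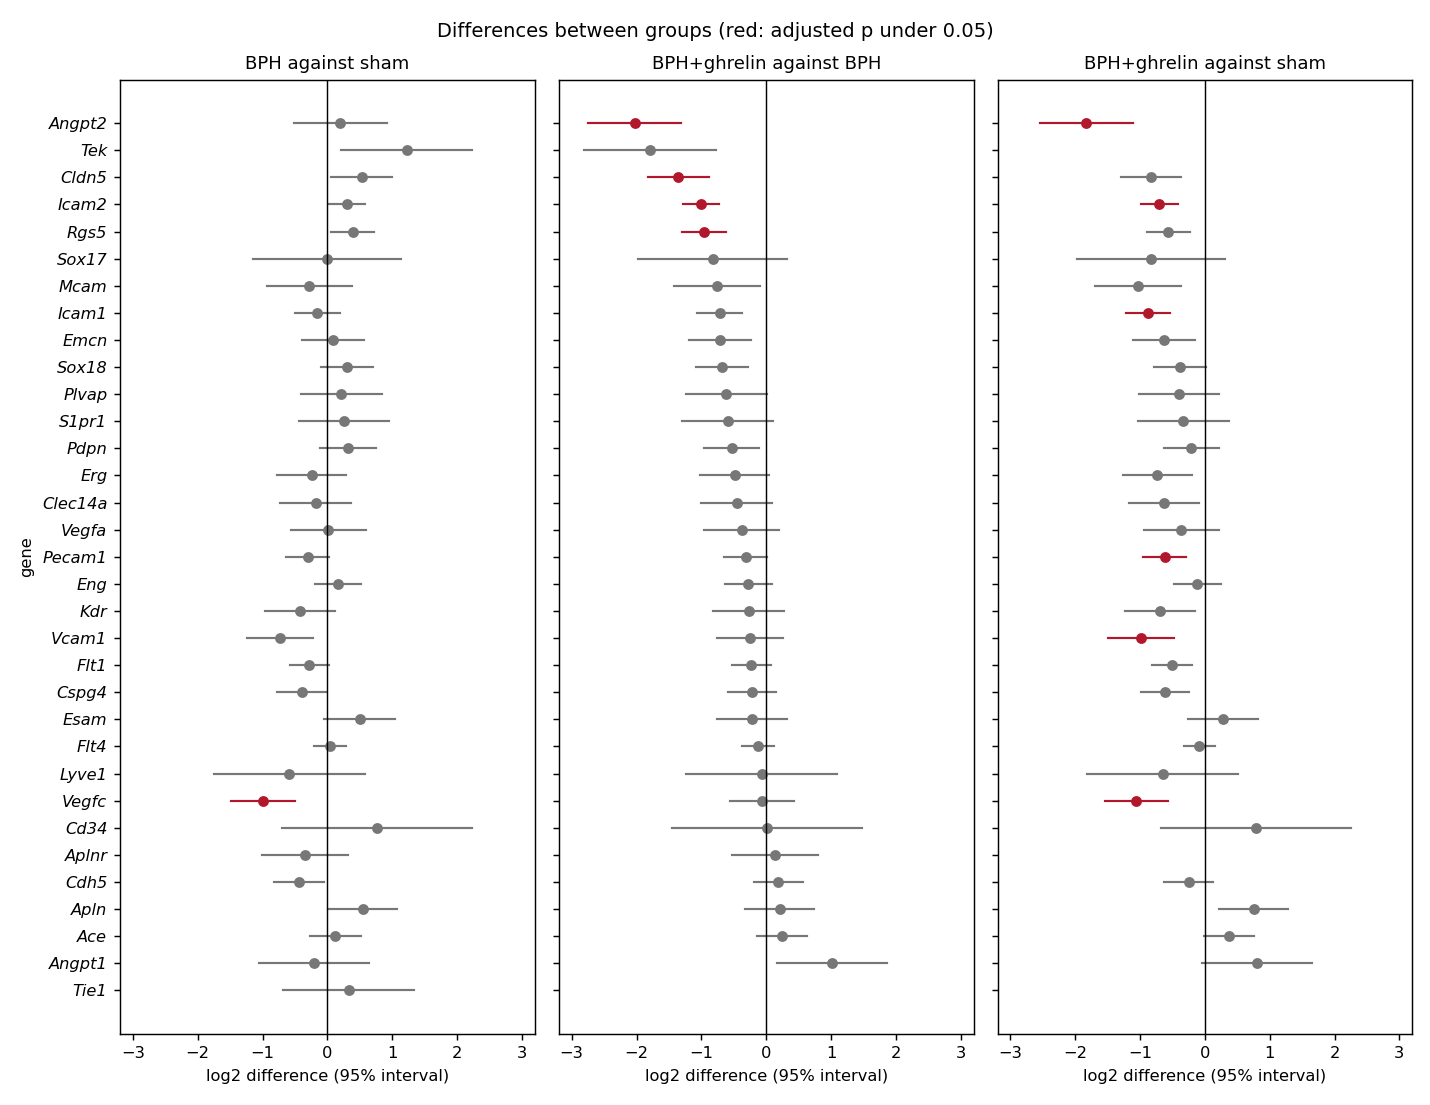
Differences of group means (horizontal axis, log2) with 95% intervals from limma for each gene tested (vertical axis, ordered by BPH+ghrelin against BPH) in 3 comparisons; red marks an adjusted p under 0.05 and an empty line a gene not tested. Most points lie left of 0 in both comparisons with BPH+ghrelin (26 of 32 and 25 of 30), but not for BPH against sham (15 of 33).

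In BPH+ghrelin compared to sham, 6 endothelial genes were called, all of them lower in BPH+ghrelin. They comprised the inducible adhesion molecules Icam1 and Vcam1, the ligands Angpt2 and Vegfc, and the surface molecules Icam2 and Pecam1. Of 30 genes tested, 25 were lower by their means (45.5% of all genes), and the median difference was -0.59, compared to 0.04 for all 19197 genes. The 6 calls compare with 6.29% of all genes for both directions and 3.3% for lower levels. Arrays did not overlap for 16 genes that were lower (12.8% of all genes) and for 1 gene that was higher (17.5% of all genes). An unadjusted p under 0.05 was found for 16 of 30 genes (23.7% of all genes). Angpt2 entered through its sham arrays alone, and without it 5 of 29 genes were called and 24 were lower by their means. With slide as a fixed block, 0 genes were called in limma and 12 had an unadjusted p under 0.05. This comparison shares its arrays with both others and is not independent of them.

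Icam1 levels were 6.70, 6.95 and 6.72 in sham, 6.83, 6.66 and 6.41 in BPH, and 5.88, 5.81 and 6.05 in BPH+ghrelin. BPH overlapped with sham, and BPH+ghrelin lay below both. The difference from sham was -0.87 (1.83-fold, standard error 0.15, adjusted p 0.0170). Vcam1 levels were 7.18, 7.62 and 7.23 in sham, 6.92, 6.68 and 6.23 in BPH, and 6.15, 6.30 and 6.64 in BPH+ghrelin. Here, both castrated groups lay below sham and overlapped with each other. Vcam1 differed by -0.98 between BPH+ghrelin and sham (standard error 0.22, adjusted p 0.0404), while its difference of -0.74 in BPH did not pass the test.

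Pecam1 levels were 9.24, 8.92 and 9.08 in sham, above all BPH+ghrelin arrays. The difference was -0.62 (1.54-fold, standard error 0.14, adjusted p 0.0434). Vegfc was 2.08-fold lower than in sham (difference -1.06, standard error 0.21, adjusted p 0.0288), and Icam2 was 1.63-fold lower (difference -0.70, standard error 0.12, adjusted p 0.0185). Between both castrated groups, Vegfc differed by -0.06 (95% interval -0.56 to 0.43). For Angpt2, the difference of the measured signals from sham was -1.83 (adjusted p 0.0172 in limma), and this p does not test a bound. Angpt2 was at least 2.18-fold lower than in sham. This bound is approximate and holds for the main processing only, and the difference shrank to -0.17 under an alternative.

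Several genes lay close to the threshold without passing it. Among them were Cldn5 (-0.83, adjusted p 0.0501), Rgs5 (-0.57, adjusted p 0.0584), Flt1 (-0.51, adjusted p 0.0607), Cspg4 (-0.62, adjusted p 0.0635) and Mcam, all without overlap. Mcam had levels of 7.27, 8.15 and 7.66 in sham, 7.74, 7.42 and 7.08 in BPH and 6.28, 6.65 and 7.04 in BPH+ghrelin. Sham and BPH overlapped, and the highest BPH+ghrelin array stayed below all of them. Mcam differed by -1.04 from sham (standard error 0.29, adjusted p 0.0727). Kdr was lower by its mean as well (-0.70, adjusted p 0.120), and so was Cdh5 (-0.25, adjusted p 0.403), both without overlap. The gene with a higher level on all BPH+ghrelin arrays was Apln, with levels of 4.72, 4.29 and 4.48 in sham and 5.69, 5.32 and 4.74 in BPH+ghrelin (difference 0.75, adjusted p 0.0958).

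On the slide shared by sham replicates 1 and 2 with BPH+ghrelin replicates 2 and 3, the differences were -1.13 for Vegfc, -0.93 for Vcam1, -0.89 for Icam1, -0.69 for Icam2 and -0.62 for Pecam1. The number of called genes was 1 without sham replicate 3 and without replicate 1 or 2 of BPH+ghrelin, 2 without replicate 2 of BPH or replicate 3 of BPH+ghrelin, and up to 9 without 1 of the other arrays. With normexp background correction, 4 genes were called, with differences of -0.65 for Vegfc, -0.58 for Vcam1, -0.49 for Pecam1 and -0.42 for Icam1. Icam2 (-0.16) and Angpt2 were not called. The Angpt2 difference was -2.25 to -0.17 over the alternatives other than leaving out arrays. Seminal vesicle and coagulating gland markers differed by a median of -4.80 in this comparison (7 tested, 5 lower and all 5 called). Leukocyte markers were lower for 11 of 12 genes, with a median of -0.55 and 3 genes called, and smooth muscle markers for 9 of 10, with a median of -0.33 and 1 gene called, compared to -0.59 for the endothelial and pericyte genes. Striated muscle markers were lower for 6 of 8 genes (median -0.88), while fibroblast markers had a median of 0.15 and luminal epithelium markers one of 0.03. Basal epithelium markers (0.48), adipocyte markers (0.57) and red blood cell markers (1.11) had higher medians. The part of these cell types and tissues in the vascular values was not tested.

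**Figure D3:**
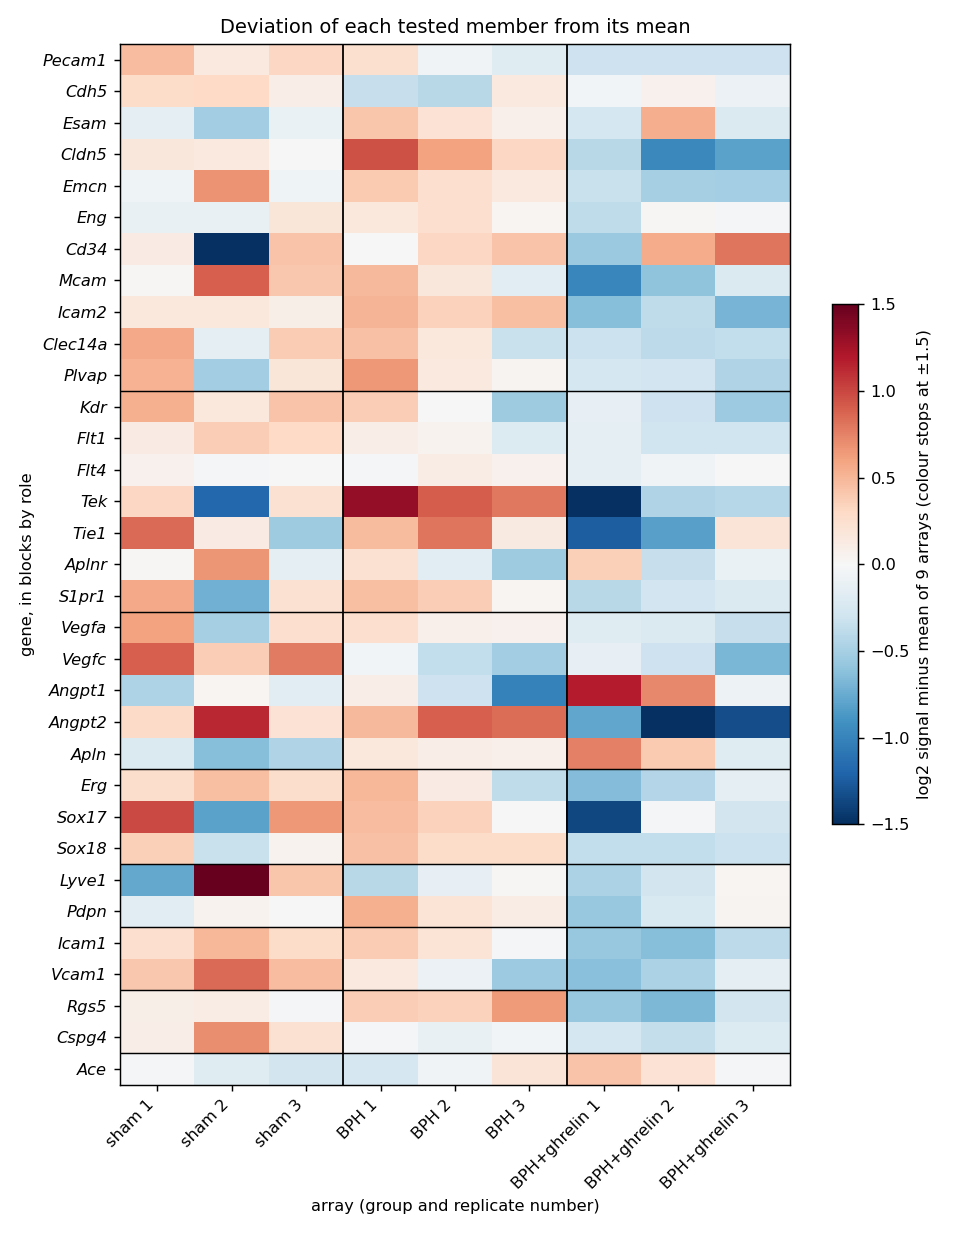
Deviation of the log2 level of each of 33 tested genes (rows, in blocks by role) from its mean over 9 arrays (columns, by group and replicate), with red above and blue below the mean. In the BPH+ghrelin columns most rows are blue, with Angpt1 and Apln among the exceptions, and the spread between sham arrays is widest for Cd34, Lyve1 and Sox17.

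Levels varied between arrays of the same group, and this variation differed between genes. Lyve1 had levels of 7.78, 10.15 and 8.96 in sham, compared to 8.14, 8.43 and 8.56 in BPH. Cd34, a surface protein of endothelial and stromal cells, had 3.02, 0.81 and 3.32 in sham, and Sox17 had 4.98, 3.19 and 4.64. The highest sham level of Lyve1 and the lowest of Cd34 and Sox17 came from sham replicate 2, the dimmest array. Icam2 (SD 0.04), Flt4 (SD 0.05), Rgs5 (SD 0.07) and Cldn5 (SD 0.09) varied little between the sham arrays (n = 3).

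For 7 genes with several probes, the brightest probe was used, and the others did not always give the same picture. For Erg, the probe used differed by -0.49 between BPH+ghrelin and BPH, whereas the other probe differed by 1.35, and between BPH and sham they differed by -0.24 and -1.70. For Vegfa, BPH+ghrelin had a lower mean than BPH with all 4 probes (-0.38, -0.52, -0.38 and -0.70). Between BPH and sham, however, they ranged from 0.01 to 0.97. The other probe of Flt4 had levels of 5.31, 5.24 and 5.06 in sham, 5.89, 5.85 and 5.78 in BPH, and 5.53, 5.40 and 5.42 in BPH+ghrelin, where the probe used differed little between groups. Clec14a, which encodes an endothelial lectin, differed by -0.45 and -0.33 between these groups with its 2 probes. Ace (angiotensin converting enzyme) had one probe with a difference of 0.12 and another with a difference of 2.07 between BPH and sham, which was well above background on 1 of 3 sham arrays. The other probe of Pdpn differed by 1.64 between BPH and sham and by -1.81 between BPH+ghrelin and BPH, where the probe used differed by 0.32 and -0.53, but it was well above background on BPH arrays alone. Which transcripts these probes detect was not examined.

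A further list of 59 vascular genes, comprising ligands, receptors, Notch and angiocrine genes, was compared for context. In BPH+ghrelin against BPH, 37 of 49 genes tested were lower (75.5%, compared to 48.3% of all genes), with a median difference of -0.30. Called were 2 genes (1.48% of all genes), Procr, the endothelial protein C receptor, and Acvrl1, an endothelial receptor of the TGF-β family. Acvrl1 levels were 6.15, 6.02 and 5.90 in BPH and 5.19, 5.19 and 5.34 in BPH+ghrelin, without overlap (difference -0.79, standard error 0.13, adjusted p 0.0318). Procr levels were 4.82, 4.66 and 4.53 in BPH and 2.37, 3.22 and 2.88 in BPH+ghrelin (difference -1.85, standard error 0.22, adjusted p 0.0162), and 1 of 3 BPH+ghrelin arrays was well above background. The groups of both genes were separated by more than their spread. Without overlap, 18 of 49 genes lay lower (19.3% of all genes) and 4 higher (19.8% of all genes). Among these 4 was Nrp2, a coreceptor of VEGF, with the largest difference of this list in either direction (2.02, adjusted p 0.0546) and levels of 3.48, 4.21 and 4.50 in BPH and 5.26, 6.30 and 6.68 in BPH+ghrelin. The Notch ligand gene Dll4 (0.67, adjusted p 0.0738), Cxcl12 (0.56) and Bmx (0.24) were the others, and none of them passed the test.

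Against sham, 31 of 46 genes of this list were lower in BPH+ghrelin (45.5% of all genes), and the median difference was -0.21. Called lower were Procr (-1.02), the pericyte and smooth muscle potassium channel gene Kcnj8 (-1.01) and the arterial connexin gene Gja4 (-0.57), and called higher was the chemokine gene Cxcl12 (0.74), that is 4 of 46 genes, compared to 6.29% of all genes. In BPH against sham, 17 of 46 genes were lower (46.3% of all genes) and 29 higher, with a median of 0.15. The matricellular inhibitor of angiogenesis Thbs2 was called higher (0.84, adjusted p 0.0241) and the endothelial kinase gene Bmx lower (-0.71, adjusted p 0.0365). These 2 calls of 46 genes are close to the 4.34% of all genes called.

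Markers of several other cell types had lower means in BPH+ghrelin than in BPH too. Smooth muscle markers were lower for 9 of 10 genes with a median difference of -0.52, leukocyte markers for 10 of 12 with -0.47, fibroblast markers for 7 of 8 with -0.35 and luminal epithelium markers for 9 of 10 with -0.27, compared to -0.35 for the endothelial and pericyte genes. Called lower were 2 of 12 leukocyte markers (Ptprc and C1qa), 1 of 8 fibroblast markers (Lum) and 1 of 10 smooth muscle markers (Myh11), compared to 4 of 32 endothelial and pericyte genes. Adipocyte markers were lower for 4 of 4 genes (median -0.65), seminal vesicle and coagulating gland markers for 5 of 6 (-0.71), basal epithelium markers for 3 of 5 (-0.24) and striated muscle markers for 5 of 8 (-0.04), while red blood cell markers were lower for 1 of 3 genes with a median of 0.35. The median deviation from the mean of 9 arrays was 0.12 to 0.22 in sham, 0.04 to 0.37 in BPH and -0.37 to -0.22 in BPH+ghrelin for the endothelial and pericyte genes. It was 0.17 to 0.36, -0.15 to 0.34 and -0.36 to -0.23 for leukocyte markers, and -0.44 to 0.41, -0.14 to 0.62 and -0.48 to -0.17 for smooth muscle markers. The part of these cell types in the vascular values was not tested.

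**Figure D4:**
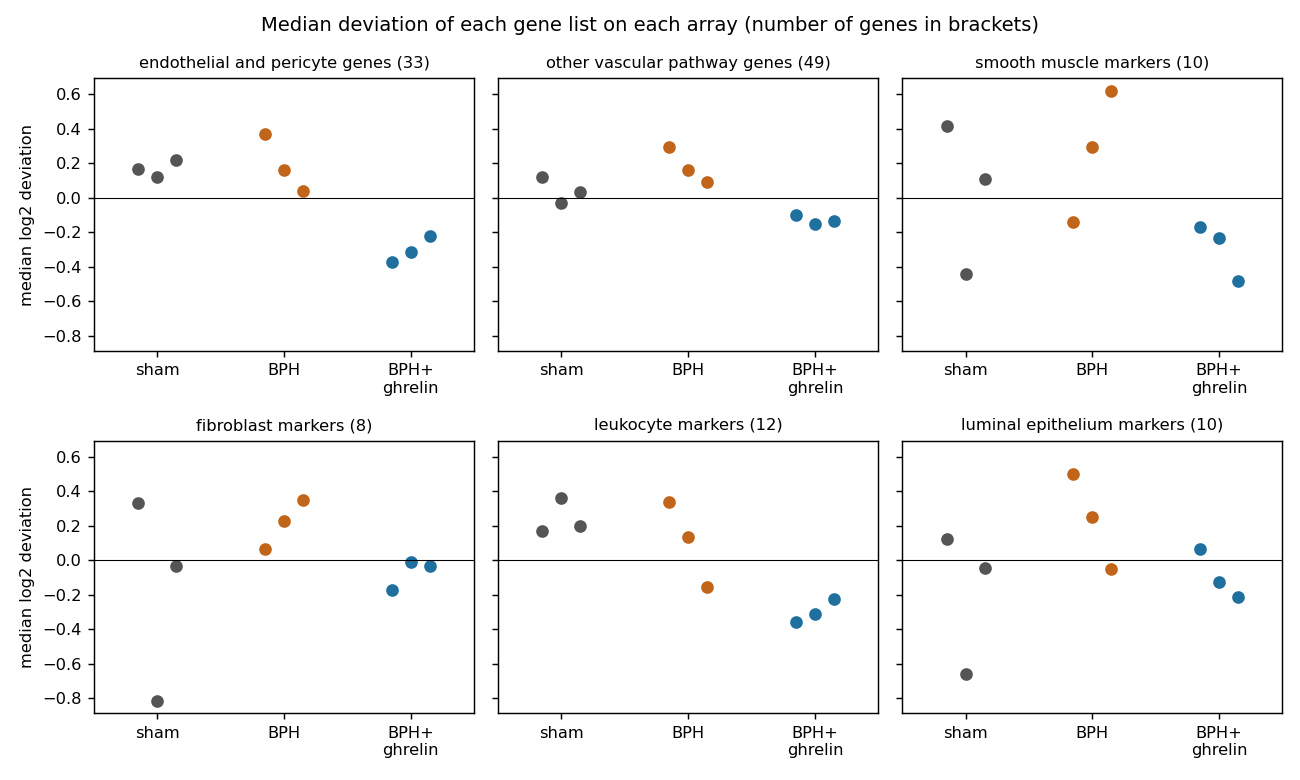
Median deviation (log2) of 6 gene lists from the mean of 9 arrays, with a point for each array and the number of genes in brackets. Endothelial and pericyte genes lie between -0.37 and -0.22 in BPH+ghrelin, below all sham and BPH arrays, as do the leukocyte markers.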

How the data were processed

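Total RNA of 9 rat prostates (3 sham, 3 BPH and 3 BPH+ghrelin, groups as labelled) had been amplified, labelled with Cy3 and hybridized to Agilent one-color arrays. The intensity deposited by the authors is the processed signal of Agilent Feature Extraction 11.0.1.1 (submitters' processing notes), background-subtracted, linear and not normalized between arrays. Their matrix of deposited log2 values, quantile normalized in GeneSpring GX 12.1, was used as an alternative.

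Of 44254 spots, 42877 were not controls, and 313 to 741 outlier spots per array were left out. Spots of a probe were averaged, and log2 values of 30356 probes were quantile normalized over 9 arrays, as in the study's methods; 59.3% of the probes matched a symbol (RefSeq, GRCr8) by accession. Probes had to be well above background on 3 or more of the 6 arrays of a comparison, and the brightest probe stood for its gene. All 3 groups entered 1 fit (limma 3.58.1, lmFit and eBayes, R 4.3.3), with Benjamini-Hochberg adjustment over all genes. The number of arrays limits the precision, and with 3 arrays against 3, the smallest p of a two-sided exact permutation test is 0.1. On simulated data with the spread of each gene, 35% to 39% of 2-fold and 82% to 85% of 4-fold changes were called. Its noise was independent between genes and arrays, without slides or a pattern shared by many probes, so that the rates may differ for the real arrays.

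Where 0 of 3 arrays of a group were well above background, a bound is given: the mean of the other group over the mean of the lowest signal well above background on each array, or of the signal itself where higher. That lowest signal is taken over all probes and is not the detection limit of the probe concerned, so that the bound is approximate. Slides were told apart by scan identifiers in the files. The genes and lists were chosen with earlier results of these data known. Full values are given for genes called in any comparison, for those at least 2-fold apart without overlap, and for the defining genes Pecam1, Cdh5, Kdr, Tek and Rgs5. Values of further genes, among them Angpt1, Apln, Cspg4, Lyve1, Cd34, Sox17, Acvrl1, Procr, Nrp2 and the other probe of Flt4, were added after they were seen. Alternatives were 75th percentile scaling, normexp (offset 50, on median spot and background signals, so that signal and correction change together), other filters on dim probes, the mean of the probes, fits with 6 arrays, the deposited matrix, a block for replicate number or slide, eBayes with a robust trend, and leaving out each array.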

Additional observations from a re-analysis of the deposited data

How the results depend on the processing

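In BPH against sham, the call of 1 gene (Vegfc) became 0 without a filter on dim probes, with the 6 arrays compared, with the replicate number as a block and with slide as a fixed block, 2 with the mean of the probes (Flt4 and Vegfc) or the deposited matrix (Tek and Vegfc), and 10 with slide as a random block, for which a negative correlation within slides was estimated (-0.21). It was 0 to 1 when 1 array was left out. For the alternative settings of all comparisons, leaving out arrays included, the share of all genes called is not given. Whether a higher or lower count went with a like change over all genes was therefore not tested. The median of the genes, 0.04, was 0.16 with the mean of the probes and -0.07 at its lowest in the other settings. It was -0.05 to 0.09 without 1 array, so that its sign was not fixed. Scaling to the 75th percentile moved the median of all genes from 0.04 to -0.09 in this comparison.

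In BPH+ghrelin against BPH, the 4 calls became 1 with normexp on the median spot and background signals (Rgs5), 9 with the 6 arrays compared, 8 with slide as a random block, and 0 with the replicate block or slide as a fixed block, and were 0 to 8 without 1 array. The median of -0.35 was -0.20 with normexp, -0.52 with slide as a fixed block, and -0.47 to -0.27 without 1 array. In BPH+ghrelin against sham, the 6 calls became 10 with 75th percentile scaling, 3 with the 6 arrays compared, 1 with the replicate block (Vegfc), and 0 with slide as a fixed block, and were 1 to 9 without 1 array. The median of -0.59 was -0.18 with normexp, where the signal used and its correction changed together, and -0.62 to -0.51 without 1 array. Where the count was 0 in limma, an unadjusted p under 0.05 was found for 5 to 8 genes in BPH against sham settings other than leaving out arrays, for 11 or 12 in BPH+ghrelin against BPH and for 12 in BPH+ghrelin against sham. Fixed slide blocks leave BPH+ghrelin against BPH to 1 array and fewer degrees of freedom; other causes were not tested. Deviations of arrays with the same replicate number correlated by -0.14 to 0.26, and those with other numbers by -0.29 to 0.31. These ranges overlapped, so that they showed no pairing by number but cannot exclude one.

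Over all alternatives of the 24 differences of genes named by the rule, 0 values changed sign. The 11 called differences kept the call in 129 of 218 alternative values and lost it in 89, and the 13 others gained it in 12 of 258. Dim probes limit Angpt2, Tek, Tie1, Aplnr, Cd34 and Sox17, and 3 arrays a group limit the detection of 2-fold changes.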
